A study of Mus musculus with 4 samples.

Results

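Cyclic nucleotide phosphodiesterases are the enzymes that break down cAMP and cGMP, and 7 of their genes were followed here across the cell classes of mouse pancreatic islets: Pde5a, Pde10a, Pde1c, Pde3b, Pde4b, Pde4d and Pde8b. They were found by symbol among the 32285 genes of the deposited matrices, and each symbol named 1 row. The set was chosen by measured values of these same data, namely that Pde5a was lower in the insulin cells of mutant mice on both diets. The Pde5a difference in those cells is therefore given as a description, and no other value is read as support for it.

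The islets came from male mice that were wildtype (WT) or homozygous (HH) for a Pax4 knock-in modelling the human R192H variant of PAX4, a transcription factor of β cell development. The knock-in is carried by every cell of the animal. One pair of groups ate a standard chow diet (SCD) and was 12 weeks old, and the other ate a high-fat diet (HFD) for 4 weeks and was 16 weeks old, so diet and age cannot be told apart. Each of the 4 groups was 1 droplet library made from the pooled islets of several mice, with no replicate library, so that no test between groups was made and library and group cannot be told apart. Intervals are exact 95% intervals, and they cover counting error only. Unique molecular identifiers (UMIs) at the 3′ ends of transcripts were counted, which neither read the Pax4 substitution nor allow levels of different genes to be ranked.

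In β cells, cAMP made after nutrient and incretin signals amplifies insulin release, and phosphodiesterases end that signal by turning cAMP into AMP. cGMP is made by soluble and membrane guanylyl cyclases and is removed in the same way. The members differ in what they cut. PDE5A is specific for cGMP, PDE10A and the calcium-calmodulin activated PDE1C cut both nucleotides, PDE3B prefers cAMP and is slowed by cGMP, and PDE4B, PDE4D and PDE8B are specific for cAMP.

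What these enzymes share is a short stretch of the catalytic domain that opens with the histidine and aspartate that hold the metal ion. The coding bases of its first 10 codons are shown for the 7 members because they define the family that the report follows. Capitals mark the codons of the histidine and the aspartate, and all bases read 5′ to 3′ on the coding strand of the longest coding transcript in GENCODE M21.
Pde5a: CATGACttggatcatcgtggcgtgaacaac
Pde10a: CATGACctggaccacaggggcttcagtaac
Pde1c: CATGACtatgaacatactggaactacaaac
Pde3b: CACGATtacgatcacccaggaagaacaaat
Pde4b: CATGATgtcgatcatcctggagtctccaat
Pde4d: CATGATgtggaccatcctggggtgtcaaat
Pde8b: CACGACgtggatcaccccggaaggaccaac

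Of the 30 bases of Pde5a, 21 were shared by Pde10a, 21 by Pde4b, 21 by Pde4d and 21 by Pde8b, against 19 by Pde1c and 16 by Pde3b. A search for the whole PDEase I signature, as a protein pattern, found it in 21 of the 24 genes of a phosphodiesterase family list. The 3 without it were Pde6d, Pde6g and Pde6h, which carry the family symbol without being catalytic subunits. It was found in 0.100% of all 21951 protein-coding genes searched. These bases lie in coding exons and are not the 3′ tags that were counted.

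On the GRCm38 build, Pde5a lies on the plus strand at chr3:122728947-122859374, and its signature falls in exon 14 of 21 at chr3:122824966-122824995. Pde10a lies on the plus strand at chr17:8525372-8986648, with the signature in exon 18 of 23. Pde1c lies on the minus strand at chr6:56069804-56569103, with the signature in exon 9 of 19. Pde3b lies on the plus strand at chr7:114415281-114539251, with the signature in exon 12 of 16. Pde4b lies on the plus strand at chr4:102087543-102607259, with the signature in exon 13 of 17. The 2 members on chromosome 13 are Pde4d, on the plus strand at chr13:108449948-109953461 with the signature in exon 11 of 15, and Pde8b, on the minus strand at chr13:95024454-95250336 with the signature in exon 17 of 21.

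The libraries held 68011082 to 104810105 UMIs, and 12404 cells remained after filtering. Only 38.3% of the WT HFD barcodes passed the filter, against 61.6% to 67.8% in the other libraries, and 0 to 4 of the kept barcodes were shared by any pair of libraries. The beta-like class held 7859 cells in 7 clusters, and all 8 β cell markers were detected in it, with a summed level of 583351 to 611219 CPM, where CPM scales the UMIs of a gene to a common total. One of these clusters, number 18, came almost wholly from a single library, with 1240 of its 1273 cells from HH HFD. In beta-like cells, the summed level of 6 endothelial markers was 4.79, 4.54, 5.07 and 22.2 CPM in WT SCD, HH SCD, WT HFD and HH HFD, and that of 4 PP markers was 610.3, 696.5, 506.2 and 1109 CPM in the same order. The 6 alpha markers summed to 487.6, 568.9, 335.4 and 583.1 CPM and the 4 delta markers to 78.8, 88.7, 79.7 and 119.1 CPM, again highest in HH HFD. Of these markers, 1 delta marker was at 0 in HH HFD and no other was at 0 in any library, and their part in the results was not tested. Below, a level is the CPM of a gene in the summed UMIs of a class in 1 library, given for classes of at least 50 cells.

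Pde5a, which encodes the cGMP-specific enzyme, had its highest endocrine level in beta-like cells. Its level there was 128 CPM in WT and 83.5 CPM in HH on SCD, and 121 CPM in WT and 90.2 CPM in HH on HFD, from 6958, 4356, 4075 and 6171 UMIs. Both HH libraries lay below both WT libraries. In alpha-like cells the 4 levels ran from 2.94 to 6.60 CPM, in PP-like cells from 3.65 to 9.27 CPM, and in delta-like cells from 12.8 to 16.0 CPM. Each of these levels was below that of the beta-like cells of the same library. Beta-like RNA matching the insulin of these cells would make up part of their Pde5a level. That part was 27.6% to 70.2% in alpha-like, 16.1% to 48.4% in PP-like and 16.9% to 27.8% in delta-like cells.

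Outside the endocrine classes, Pde5a was also read in cluster 16, an unnamed cluster whose leading genes include Mgp, Rgs5 and Dcn, genes known from mural and stromal cells. Its level there was 163 CPM (95% interval 131 to 199) in HH HFD, the only library with at least 50 of these cells. Macrophage-like cells held 19.98 CPM of Pde5a in WT HFD and 66.7 CPM in HH HFD, and insulin genes took 8.59% and 40.9% of their UMIs. Beta-like RNA carrying that much insulin would bring 18.9 and 67.1 CPM of Pde5a. In cluster 16 the same calculation gave 3.57 CPM, far below the level read, and in alpha-like cells it gave 1.69 to 3.21 CPM. Cluster 15, the other unnamed cluster, was kept out of the beta-like class although 8 of 8 β cell markers were up in it. Its leading genes include Igkc, Mki67 and Top2a. In HH HFD its 80 cells held 60.2 CPM of Pde5a, and insulin genes took 47.9% of their UMIs. The same calculation gave 78.5 CPM there.

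**Figure D1:**
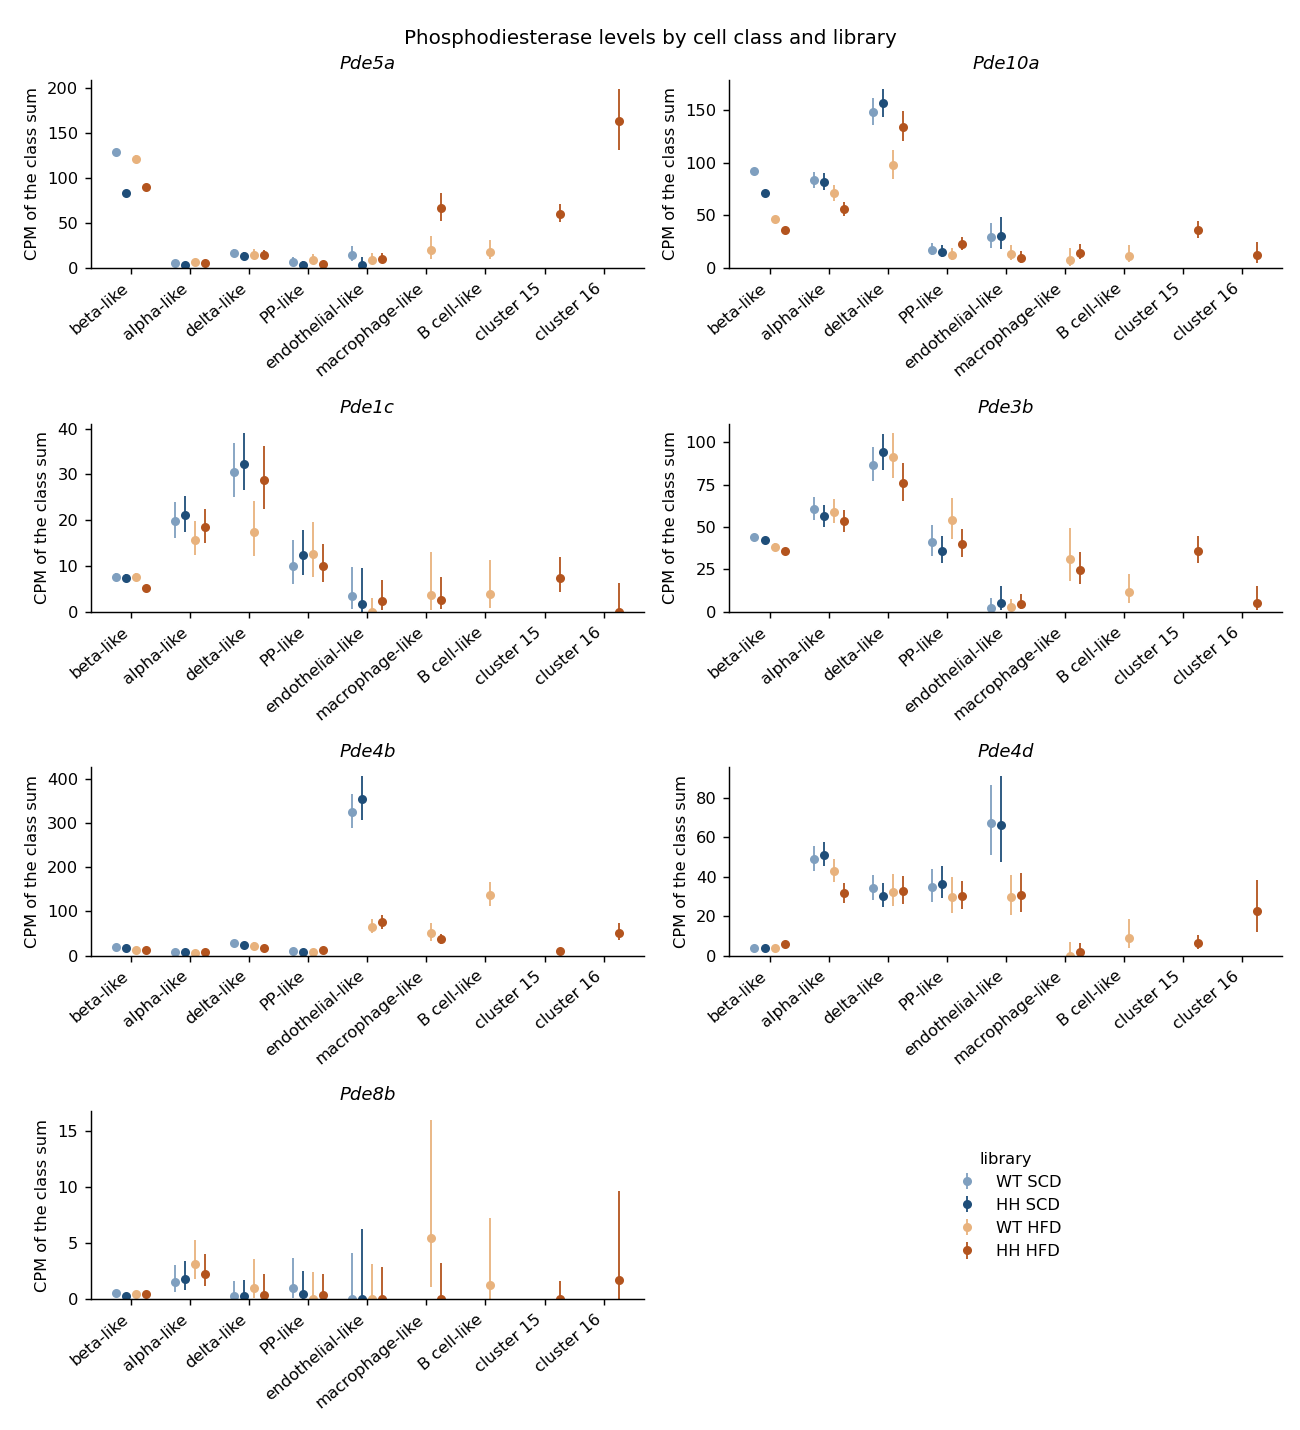
Level of each gene (CPM of the summed UMIs of a class, vertical axis) by cell class (horizontal axis) in the 4 libraries; points are single libraries and bars exact 95% Poisson intervals, for classes of 50 or more cells. Pde5a stands at 83.5 to 128 CPM in beta-like cells and at 163 CPM in cluster 16, Pde10a, Pde1c and Pde3b are highest in delta-like cells in every library, and Pde4b reaches 354 CPM in endothelial-like cells.

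Per cell, both WT libraries again stood above both HH libraries. After each beta-like cell was thinned to 3000 UMIs, 31.3% of WT SCD cells had a Pde5a UMI, as did 23.6% of HH SCD, 32.4% of WT HFD and 23.5% of HH HFD cells. No cell was too shallow to be thinned. Unthinned, the shares were 92.6%, 83.6%, 92.2% and 81.4%. For comparison, 3.15%, 0%, 1.37% and 2.08% of thinned endothelial-like cells had a Pde5a UMI (10.2%, 2.25%, 4.79% and 5.21% unthinned), at a median depth of 5812 to 7127 UMIs against 24090.5 to 29791.5 in beta-like cells. The 0 of 89 endothelial-like cells in HH SCD allow a share of cells with a UMI of up to 4.06% by the exact binomial limit. Beta-like RNA matching their insulin would make up 21.1% to 54.4% of the Pde5a level of endothelial-like cells, so these shares are not shares of expressing cells.

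The Pde5a UMIs of beta-like cells were not held by a few cells in any library. The richest 1% of beta-like cells held 3.48%, 4.18%, 3.61% and 4.63% of all Pde5a UMIs in WT SCD, HH SCD, WT HFD and HH HFD. Before thinning, the median beta-like cell had 3 Pde5a UMIs in both WT libraries and 2 in both HH libraries, at median depths of 26378 and 29791.5 UMIs in WT and 26184.5 and 24090.5 in HH. Cells with 2 UMIs after thinning made up 5.22% and 5.61% of cells in the WT libraries of SCD and HFD, and 3.01% and 3.11% in the HH libraries.

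**Figure D2:**
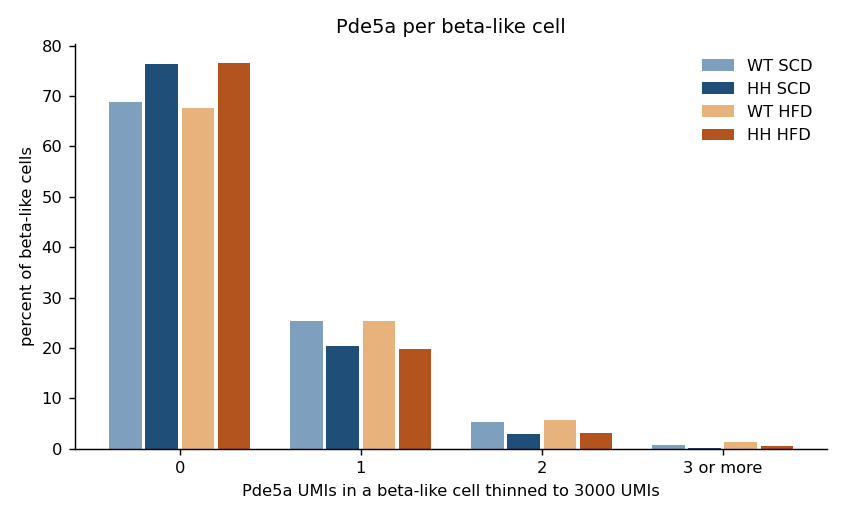
Percent of beta-like cells (vertical axis) with 0, 1, 2 and 3 or more Pde5a UMIs (horizontal axis) after thinning each cell to 3000 UMIs, 1 bar per library. The bars without a UMI stand at 68.7% and 67.6% in the WT libraries and at 76.4% and 76.5% in the HH libraries.

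The log2 ratio of HH over WT for Pde5a in beta-like cells was -0.62 (95% interval -0.67 to -0.56) in SCD and -0.43 (-0.49 to -0.37) in HFD. The contrast between the diets, HFD minus SCD, was 0.19 (0.11 to 0.27) on the log2 scale. Among the genes at 10 CPM or more, Pde5a was the 7th lowest of 6054 in SCD and the 295th lowest of 5891 in HFD. Of the 4 members at 10 CPM or more, Pde5a was the 1 lower in HH by at least 1.3-fold in each diet, and 0 were higher by that much. Members under 10 CPM were not counted, and their values follow below. Of all genes at that level, 1.06% were lower and 0.149% higher in SCD, and 7.86% were lower and 2.07% higher in HFD. Since the rule used this contrast, nothing is read from these counts. When libraries were scaled by the median of ratios in place of totals, the Pde5a values were -0.54 and -0.31, and the HFD value no longer passed 1.3-fold. Nor did it in the beta-like cells low in other hormones (-0.38) or over all deposited barcodes (-0.34). Median-of-ratios scaling moved the median of all genes from -0.09 to -0.003 in SCD and from -0.13 to -0.02 in HFD. The genes past 1.3-fold were then 33 lower and 23 higher in SCD, in place of 64 and 9, and 167 lower and 269 higher in HFD, in place of 463 and 122.

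Pde10a encodes an enzyme for both nucleotides that is best known from striatal neurons. In beta-like cells its level was 92.4 CPM in WT and 71.6 CPM in HH on SCD, and 46.2 CPM in WT and 36.2 CPM in HH on HFD. Each HH library lay below the WT library of its diet, and both HFD libraries lay below both SCD libraries. The HH over WT log2 ratio was -0.37 (-0.43 to -0.31) in SCD and -0.35 (-0.44 to -0.26) in HFD, just short of 1.3-fold in both. In SCD a finer clustering, or the beta-like cells low in other hormones alone, brought it past 1.3-fold, as did the cells low in other hormones in HFD (-0.39), while with median-of-ratios scaling it was -0.28 in SCD and -0.23 in HFD.

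The other gene for an enzyme of both nucleotides, Pde1c, whose product responds to calcium, stayed under 10 CPM in beta-like cells, with 7.61, 7.40, 7.57 and 5.26 CPM in WT SCD, HH SCD, WT HFD and HH HFD. The HH HFD library stood below the other 3, which lay within their counting intervals of each other. Its log2 ratio was -0.04 (-0.25 to 0.16) in SCD and -0.53 (-0.76 to -0.29) in HFD. Without cluster 18, where HH HFD cells held 3.32 CPM of Pde1c, the HFD value was -0.03.

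Pde3b, the cAMP enzyme that is active downstream of insulin signals, differed little between genotypes in beta-like cells. Its level was 43.9, 42.1, 38.5 and 35.6 CPM in the 4 libraries in the same order, and the log2 ratio was -0.06 (-0.14 to 0.02) in SCD and -0.11 (-0.21 to -0.01) in HFD. Both values were close to the median of all genes at 10 CPM or more, which was -0.09 in SCD and -0.13 in HFD.

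Of the cAMP-specific genes, Pde4b stood at 19.2, 18.1, 13.0 and 12.5 CPM in beta-like cells. Its log2 ratio of HH over WT was -0.08 (-0.21 to 0.04) in SCD and -0.06 (-0.23 to 0.11) in HFD. Pde4d was barely read in beta-like cells, at 3.72, 4.08, 3.61 and 5.71 CPM, with a log2 ratio of 0.13 (-0.15 to 0.42) in SCD and 0.66 (0.37 to 0.97) in HFD. The HFD value became 1.01 in the cells low in other hormones, 0.71 without cluster 18 and -0.15 over all deposited barcodes, which hold all cell types. Pde4d was the 1 member with a higher level in HH HFD than in all other libraries. Pde8b gave 33, 14, 15 and 31 UMIs in all beta-like cells of WT SCD, HH SCD, WT HFD and HH HFD, or 0.268 to 0.608 CPM. Its log2 ratio was -1.18 (-2.20 to -0.24) in SCD, which became -0.63 in the cells low in other hormones and -0.33 over all deposited barcodes, and in HFD a difference was not detectable at this depth (0.02, -0.91 to 1.01).

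**Figure D3:**
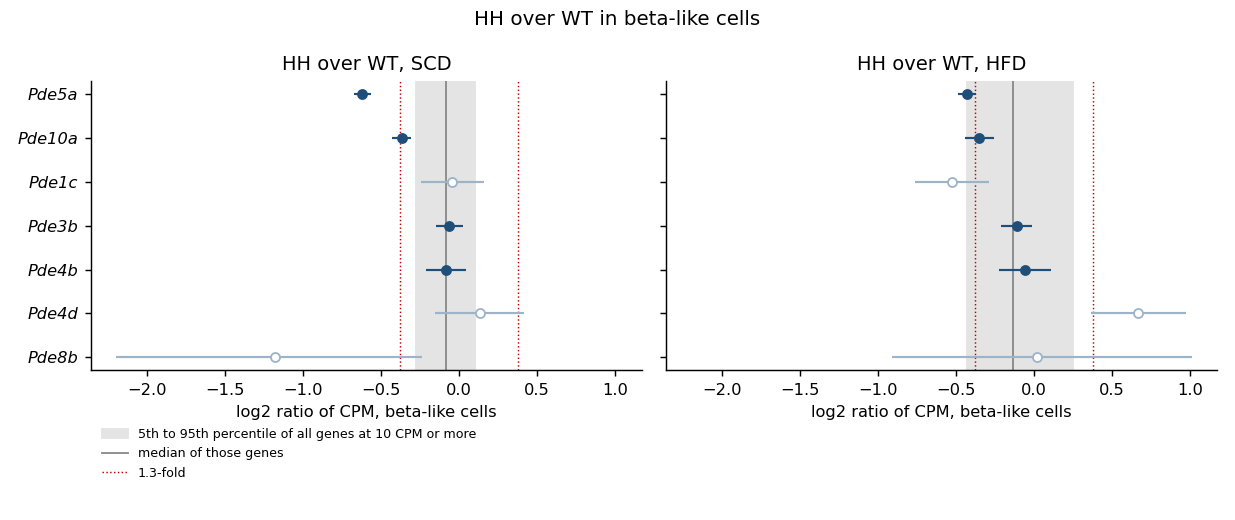
Log2 ratio of HH over WT in beta-like cells (horizontal axis) for each gene (vertical axis) in SCD and HFD; bars are exact 95% intervals, filled points are genes at a mean of 10 CPM or more and open points genes below it. Grey bands span the 5th to 95th percentile of all genes at 10 CPM or more (-0.27 to 0.10 in SCD and -0.43 to 0.25 in HFD), and dotted lines mark 1.3-fold. Left of the band lie Pde5a, Pde10a and Pde8b in SCD and Pde1c in HFD, where Pde5a lies at its edge, and Pde4d lies right of it in both diets.

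The members that reached 10 CPM in beta-like cells were 4 of 7, namely Pde5a, Pde10a, Pde3b and Pde4b. Their median log2 ratio of HH over WT was -0.23 in SCD and -0.23 in HFD, against -0.09 and -0.13 over all genes at that level. This median includes Pde5a, which the rule used, and of the other three Pde3b and Pde4b lay near the value of all genes. All 4 ratios were below 0 in both diets, as were those of 4707 of 6054 genes in SCD and 4449 of 5891 in HFD, but with median-of-ratios scaling those of Pde3b (0.02 in SCD and 0.00312 in HFD) and of Pde4b in HFD (0.06) were above 0, and without cluster 18 those of Pde4b (0.16) and Pde10a (0.01) in HFD were.

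Because clusters were set apart by diet and by cluster 18, the same ratios were taken within each cluster that had at least 50 cells in both libraries. The clusters were formed from the expression of these same cells, so these values locate a difference and do not test it. Pde5a was lower in HH in all 6 such comparisons. In SCD the log2 ratio was -0.56 in cluster 1, -0.52 in cluster 5 and -0.64 in cluster 14, and in HFD it was -0.34 in cluster 2, -0.58 in cluster 3 and -0.34 in cluster 14, and no interval reached 0. In cluster 18 the HH HFD level of Pde5a was 94.5 CPM, against 96.8 CPM in cluster 2, 80.5 CPM in cluster 3 and 104.6 CPM in cluster 14.

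Pde10a behaved otherwise in HFD. Its log2 ratio was 0.06 (-0.20 to 0.32) in cluster 2, 0.06 (-0.07 to 0.19) in cluster 3 and -0.29 (-0.76 to 0.18) in cluster 14. In cluster 18, HH HFD cells held 26.5 CPM of Pde10a against 51.1 CPM in cluster 2, 48.4 CPM in cluster 3 and 26.7 CPM in cluster 14. Without cluster 18 the HFD log2 ratio over all beta-like cells was 0.01 for Pde10a and -0.03 for Pde1c, while that of Pde5a was -0.52 and that of Pde4d 0.71. In SCD, Pde10a was lower in HH in cluster 1 (-0.25) and in cluster 5 (-0.32), and in cluster 14 the log2 ratio was 0.06 (-0.35 to 0.47).

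**Figure D4:**
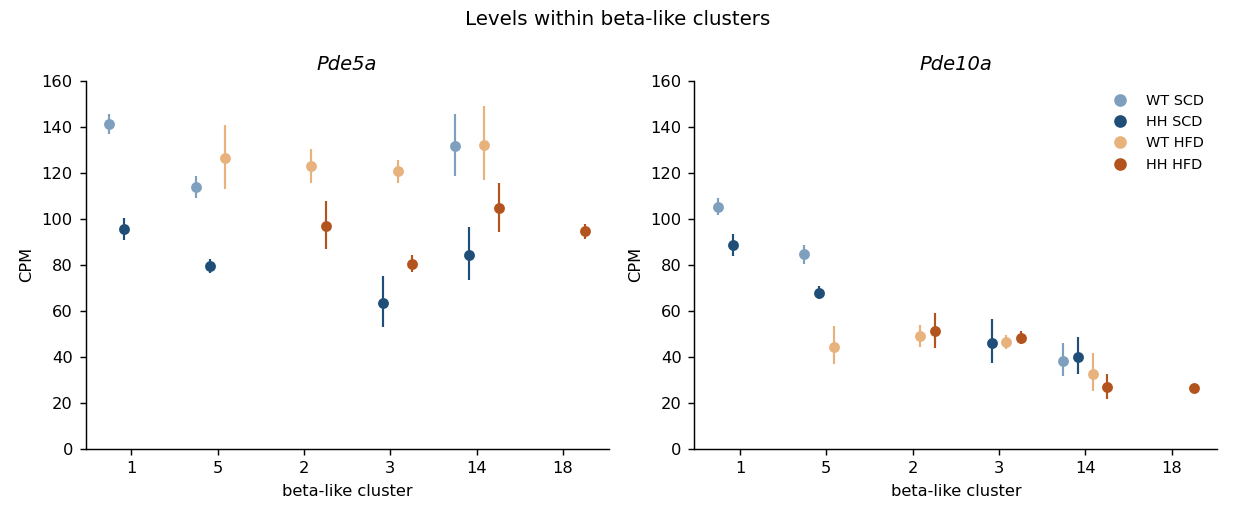
Level of Pde5a and Pde10a (CPM, vertical axis) in each beta-like cluster (horizontal axis), 1 point per library with at least 50 cells there, with exact 95% Poisson intervals. For Pde5a every HH point lies below the WT point of the same diet and cluster, whereas for Pde10a the HFD points of clusters 2 and 3 overlap and the lowest level, 26.5 CPM, is that of HH HFD cells in cluster 18.

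Between the diets, Pde10a and Pde4b were the members at 10 CPM or more that were lower in HFD by 1.3-fold in beta-like cells. The log2 ratio of HFD over SCD was -1.0 (-1.08 to -0.92) in WT and -0.98 (-1.06 to -0.91) in HH for Pde10a, and -0.56 and -0.54 for Pde4b. Both passed 1.3-fold in both genotypes, or 2 of 4 such members, with 0 of the 4 higher. Of all genes at that level, 10.0% were lower and 4.17% higher in HFD in WT, and 13.6% were lower and 5.55% higher in HH. Pde10a was the 90th lowest of 6164 genes in WT and the 126th lowest of 5804 in HH. Pde5a, with -0.08 in WT and 0.11 in HH, was not among them. Within cluster 5, which held at least 50 WT cells of both diets, Pde10a had a log2 ratio of HFD over SCD of -0.93 (-1.21 to -0.66). Within cluster 14 the ratio was -0.23 (-0.69 to 0.22) in WT and -0.58 (-1.0 to -0.16) in HH, and within cluster 3, with 69 HH SCD cells, it was 0.07 (-0.24 to 0.38) in HH. For Pde4b the ratio was -0.69 (-1.31 to -0.14) in cluster 5 in WT, -0.04 (-0.82 to 0.73) in WT and 0.02 (-0.66 to 0.71) in HH in cluster 14, and 0.81 (0.09 to 1.63) in HH in cluster 3. The diet differences of both genes were thus read in some clusters and not in others, and that of Pde4b had the opposite sign in cluster 3. The median ratio of the 4 members was -0.38 in WT and -0.39 in HH, against -0.04 and -0.07 over all genes.

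In alpha-like cells, which make glucagon, 4 members reached 10 CPM: Pde10a, Pde1c, Pde3b and Pde4d. Pde4d was read far more there than in beta-like cells, with 48.9, 51.1, 42.8 and 31.5 CPM in WT SCD, HH SCD, WT HFD and HH HFD. The HH HFD library was the lowest, and the log2 ratio of HH over WT was 0.06 (-0.19 to 0.31) in SCD and -0.44 (-0.75 to -0.14) in HFD. Of these 4 members, Pde4d was the 1 past 1.3-fold in HFD, where 4.62% of genes were lower and 3.55% higher, and 0 of the 4 passed it in SCD, where 4.10% were lower and 2.55% higher. The log2 ratio in HFD minus that in SCD was -0.50 (-0.90 to -0.11). Over the 4 members the median was 0.02 in SCD and -0.25 in HFD, against -0.02 and -0.002 over all genes.

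Pde10a in alpha-like cells was 83.3, 81.9, 70.9 and 55.7 CPM, and its HH over WT log2 ratio was -0.02 in SCD and -0.35 (-0.58 to -0.12) in HFD. Pde1c stood at 15.7 to 21.1 CPM and Pde3b at 53.4 to 60.5 CPM, and the intervals of all 4 of their ratios included 0. Pde5a in alpha-like cells came from 16 to 31 UMIs per library, and its ratio was not resolved in either diet (-0.83, -1.82 to 0.11, and -0.40, -1.21 to 0.40).

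Delta-like cells, the somatostatin cells, held the highest levels of Pde3b of any class in every library, at 87.0, 94.1, 91.6 and 76.1 CPM. Pde10a reached 148, 156, 97.6 and 134 CPM there and Pde1c 30.6, 32.4, 17.4 and 28.7 CPM. The WT HFD library, with 160 delta-like cells, was the lowest for both. The log2 ratio of HH over WT in HFD was 0.46 (0.20 to 0.72) for Pde10a and 0.72 (0.12 to 1.35) for Pde1c, and in SCD it was 0.08 for both. In PP-like cells, Pde10a was 17.2, 15.5, 11.9 and 22.8 CPM, and Pde3b 36.03 to 54.3 CPM. In HFD the log2 ratio of HH over WT there was 0.93 (0.15 to 1.79) for Pde10a, from 57 and 18 UMIs, and -0.44 (-0.88 to -0.003) for Pde3b, from 100 and 82 UMIs.

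In endothelial-like cells Pde4b and Pde4d were at their highest levels of any class in the SCD libraries. Pde4b stood at 325 and 354 CPM in the WT and HH libraries of SCD, and at 65.8 and 75.6 CPM in those of HFD, from 291, 208, 78 and 96 UMIs. The diets were far apart and the genotypes overlapped within their counting intervals. The log2 ratio of HFD over SCD was -2.31 (-2.69 to -1.94) in WT and -2.23 (-2.59 to -1.87) in HH. The share of thinned endothelial-like cells with a Pde4b UMI was 58.3%, 53.9%, 13.0% and 21.4% (74.8%, 70.8%, 36.3% and 35.4% unthinned). In alpha-like cells, whose median depth was 9959 to 16028 UMIs, it was 2.20%, 2.30%, 1.74% and 2.01% (8.31%, 7.93%, 9.06% and 7.44% unthinned). Pde4b was also read in B cell-like cells of WT HFD (138 CPM), in macrophage-like cells of WT HFD and HH HFD (50.8 and 36.9 CPM) and in delta-like cells (17.5 to 28.6 CPM). Beta-like RNA matching the insulin of these immune cells would bring 2.91 CPM of Pde4b to the B cell-like cells, and 2.02 and 9.29 CPM to the macrophage-like cells.

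Pde4d was also lower in HFD in these cells, with 67.1, 66.4, 29.5 and 30.7 CPM, and log2 ratios of HFD over SCD of -1.18 (-1.83 to -0.56) in WT and -1.11 (-1.79 to -0.43) in HH. At 10 CPM or more, 4 of 4 members in WT and 3 of 3 in HH were lower in HFD by 1.3-fold, and 0 were higher. Pde10a was among them in both genotypes, at -1.11 (-2.10 to -0.15) in WT and -1.70 (-2.88 to -0.56) in HH. The other in WT was Pde5a, which was above 10 CPM in SCD alone, with a ratio of -0.65 (-1.95 to 0.63), and in HH, under the limit, its ratio was 1.47 (-0.69 to 4.67). The endothelial sums were small, and 18.0% of genes were lower and 32.3% higher in WT, and 18.1% lower and 31.2% higher in HH, so that a ratio past 1.3-fold was common. Pde10a in HH, like Pde5a in WT, reached 10 CPM in SCD alone, so these counts are no support for a change of the members as a group. Pde4b ranked as the 69th lowest of 8141 genes in WT and the 60th lowest of 8156 in HH. The Pde5a level in endothelial-like cells rested on 2 to 13 UMIs per library.

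Of the 24 genes of the family list, 15 reached 10 CPM in a class of at least 50 cells, 9 of them not members. Pde2a, a cGMP-stimulated enzyme, was read in endothelial-like cells, with 123, 149.8, 106 and 145 CPM. Pde3a and Pde1a were highest in cluster 16, with 180.0 and 72.7 CPM in HH HFD. Pde8a, a high-affinity cAMP enzyme, was at 22.7, 20.1, 20.3 and 18.1 CPM in beta-like cells and reached 78.8 CPM in endothelial-like cells. Pde6d, which binds prenylated proteins and is not an enzyme for cyclic nucleotides, was at 12.4 to 15.5 CPM in beta-like cells. Pde7a and Pde1b reached 26.0 and 14.3 CPM and Pde4a 14.3 CPM in B cell-like cells of WT HFD, where insulin genes took 12.4% of UMIs, and Pde7b 15.3 CPM in endothelial-like cells. Pde8b, the 1 member that did not reach 10 CPM in any such class, was highest in macrophage-like cells of WT HFD, at 5.45 CPM from 3 UMIs. In beta-like cells 2 of the 17 other family genes were at 10 CPM or more, Pde8a and Pde6d, and 0 passed 1.3-fold between genotypes in either diet, with median log2 ratios of -0.05 and -0.13.

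Makers and effectors of cAMP were set beside them from a list of 31 genes. In beta-like cells 16 of them were at 10 CPM or more in SCD and 15 in HFD, with median log2 ratios of HH over WT of -0.14 and -0.18. In SCD 0 were past 1.3-fold. In HFD 1 was lower, Gnai2, which encodes an inhibitory G protein subunit, and 0 were higher, beside 7.86% and 2.07% of all genes. Gnai2 stood at 206, 184, 195 and 147 CPM in the 4 libraries, with a log2 ratio of -0.41 (-0.46 to -0.36) in HFD. Without cluster 18 that ratio was -0.12 (-0.17 to -0.06).

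Of 12 makers and effectors of cGMP, 0 reached a mean of 10 CPM in beta-like cells in SCD and 1 in HFD. That gene was Gucy2c, the guanylyl cyclase receptor known from the intestine, at 3.00, 5.06, 5.19 and 16.4 CPM in WT SCD, HH SCD, WT HFD and HH HFD. It reached the limit through the HH HFD library alone, so that its count past 1.3-fold followed from the limit. The HH HFD library stood above the other 3, and the log2 ratio of HH over WT was 0.75 (0.46 to 1.04) in SCD and 1.66 (1.43 to 1.90) in HFD. Its level was highest in cluster 18, at 22.6 CPM, and without that cluster the ratio was 0.97 (0.70 to 1.25). Within cluster 3 it was 6.01 CPM in WT HFD and 9.61 CPM in HH HFD. Among cGMP genes under the limit in beta-like cells, intervals clear of 0 lay on both sides. In HFD the HH over WT log2 ratio was -1.03 (-1.35 to -0.71) for Npr1 and 1.38 (0.74 to 2.07) for Gucy1b1. In SCD that of Prkg1 was -0.89 (-1.49 to -0.30).

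In alpha-like cells 3 other family genes were at 10 CPM or more, and Pde7a was lower by 1.3-fold in SCD and higher in HFD, with intervals that included 0 both times (-0.43, -0.99 to 0.12, and 0.45, -0.13 to 1.04). In each diet Pde7a was above 10 CPM only in the library where it was higher. Of the cAMP list, 1 of 20 genes was lower (Creb1) and 1 higher (Sik2) in SCD, and 1 of 18 was higher (Creb1) in HFD. These shares were near those of all genes, which were 4.10% lower and 2.55% higher in SCD and 4.62% lower and 3.55% higher in HFD. Of the cGMP list, 1 gene reached 10 CPM in SCD, Prkg1, and 0 in HFD. Its log2 ratio was 0.59 (0.05 to 1.15), from 75 UMIs in HH and 47 in WT. It was above 10 CPM in HH alone, at 13.8 CPM against 9.12 CPM in WT.

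The pattern of Pde5a over 25 sums of a class in a library was set beside that of 10172 genes by Pearson's r on log2(CPM + 1). The 5 most alike were Atf5 (r = 0.93), Derl2 (0.89), Dgkg (0.89), Atp2a2 (0.89) and Nupr1 (0.87). The sums come from 4 libraries and share their depth, so the values are a description. The log2 ratio of HH over WT in beta-like cells was -0.003 in SCD and -0.44 in HFD for Atf5, 0.09 and -0.07 for Derl2, 0.19 and -0.05 for Dgkg, -0.19 and -0.40 for Atp2a2, and 0.05 and 0.36 for Nupr1.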

How the data were processed

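Islet cells of 4 libraries had been measured with droplet 3′ single-cell RNA sequencing. Islets of several mice were pooled for each library. According to the methods and processing notes, the authors aligned the reads with Cell Ranger 6.0 on GRCm38. What they deposited were raw UMI counts for called cells, before their own ambient RNA and doublet steps. Whether intronic reads were counted is not given in the sources used here. Cells with under 10% mitochondrial UMIs, 3000 to 50000 UMIs and 2000 to 5000 genes were kept. Doublets scored by Scrublet (scanpy 1.11.5) were removed at 0.8% per 1000 cells, which took 81, 80, 33 and 154 cells of WT SCD, HH SCD, WT HFD and HH HFD. All libraries were clustered together without integration (3000 variable genes, 30 principal components, 20 neighbours, Leiden resolution 1, seed 1, Python 3.11.15).

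Clusters were named X-like from marker lists rebuilt here, so class borders may differ from those the study drew. The members, marker lists and gene lists were chosen with earlier results of these data known. UMI counts were summed per class and library and scaled to CPM. Ratios have exact conditional intervals and shares exact Clopper-Pearson intervals. Background counts used genes at a mean of 10 CPM or more, and a 0 was set to 3 counts. Named genes were the members, family genes at 10 CPM or more in a class, genes of the cAMP and cGMP lists past 1.3-fold in beta-like cells, and the 5 genes most like Pde5a. Alpha-like list genes are named in addition because their counts were 5 or fewer. The ratios and their intervals were also run on simulated counts that varied by counting error alone. Such counts cannot show how far mice or libraries differ.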

Additional observations from a re-analysis of the deposited data

How the results depend on the processing

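With 1 library per group, leaving out a replicate could not be done and no paired analysis was possible. Pde5a was lower in HH than in WT under every alternative, from -0.63 to -0.54 (log2) in SCD and from -0.52 to -0.31 in HFD. The alternative over all deposited barcodes took in all cell types and not beta-like cells alone. Pde5a left its counting interval without hormone and mitochondrial genes in the total (-0.56 in SCD), with median-of-ratios scaling (-0.54 and -0.31), over all deposited barcodes (-0.34 in HFD) and without cluster 18 (-0.52 in HFD), an alternative chosen after seeing the data. The median ratio of the 7 members, -0.08 in SCD and -0.11 in HFD, was -0.23 and -0.34 over all barcodes, -0.28 in HFD with an insulin gate, and turned to 0.00312 with median-of-ratios scaling (Pde3b, 0.00312) and to 0.0144 without cluster 18 (Pde10a, 0.0144) in HFD. Pde4d in HFD turned to -0.15 over all barcodes, which hold all cell types. The count of members lower by 1.3-fold, 1 in each diet, was 2 in SCD at resolution 2 and in cells low in other hormones, and in HFD 2 (with 1 higher) without hormone and mitochondrial genes, where more members reach 10 CPM, 0 with median-of-ratios scaling and 0 at 1.5-fold. In HFD the 1 member was Pde10a in cells low in other hormones and Pde4b over all barcodes. Of 168 single-gene ratios, 152 stayed within their counting interval, and the causes were not tested.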
